A study of Mus musculus with 16 samples.

Results

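In bone marrow-derived macrophages (BMDMs), 1371 regions of open chromatin kept a peak in all conditions but ranked lower after lipopolysaccharide (LPS), both without and with the LXR agonist T0901317 (T0). They were chosen by the scores of the 4 deposited peak lists, from 26439 regions with a peak in every list and 37648 merged regions in all. In each list a region was given its highest peak score and the percentile of that score among all peaks of the list. A member lost at least 15 percentile points in LPS against vehicle (Veh) and at least 15 in T0-LPS against T0. These 2 differences define the members, so their sizes are given as a description and none of them was tested. Scores are on the scale of their own list, so percentiles carry each comparison between lists. Below, "weakened" means a fall in rank within a list, and a peak of lower rank was still a called peak.

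ATAC-seq, a map of accessible DNA read from where the Tn5 transposase can cut, was run on BMDMs of C57BL/6J mice on day 8 of culture, on 50000 cells per library. The Veh cells received DMSO and the T0 cells T0 at 500 nM, both for 3 h. The LPS and T0-LPS cells had the same pretreatments and then LPS at 10 ng/mL for 2 h, so LPS and the longer culture cannot be told apart. Each group had 4 libraries, pooled into 1 peak list, so there were no replicates to compare and nothing was tested. The 95% Wilson intervals below account for counting error alone. The authors had kept only peaks at macrophage enhancers marked by H3K27ac or H3K4me2. Of the 5 macrophage markers *Spi1*, *Csf1r*, *Adgre1*, *Cd14* and *Itgam*, 4 had a peak within 1 kb of a transcription start site (TSS) in Veh and T0, and all 5 in LPS and T0-LPS. *Csf1r* was the one without such a peak in Veh and T0. Among markers of other cells, *Cd3e* and *Ly6g* had no such peak in any list, *Col1a1* had one in Veh and *Epcam* one in LPS.

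Enhancers are stretches of DNA bound by transcription factors, and they raise transcription of genes that may lie far away. In macrophages PU.1, encoded by *Spi1*, opens a large part of them together with partners such as C/EBP, AP-1 and RUNX factors, while MAF, MEF2 and MITF/TFE factors act at subsets. LPS binds TLR4 and activates NF-kB, AP-1 and later IRF and STAT factors, which open some enhancers and raise inflammatory genes, while other enhancers lose activity. LXR is a nuclear receptor that binds oxysterols, pairs with RXR at DR4 elements and raises genes of cholesterol efflux.

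The sequences of 9 members are shown because they have the largest falls or hold the motifs discussed below. Each is the 200 bp at the centre of the Veh peak, plus strand, GRCm38, with matches to any of the 22 motif patterns scanned in capitals. The 4 members with the largest mean fall come first, named by the nearest protein-coding TSS. The window near *4930486L24Rik* (chr13:60840135-60840334) and that in *Ninj1* (chr13:49191775-49191974) held no match. The window near *Dkk2* (chr3:132051114-132051313) held a pair of RUNX matches, and that near *H2-M10.4* (chr17:36415523-36415722) an AP-1 and a DR4 match.
4930486L24Rik: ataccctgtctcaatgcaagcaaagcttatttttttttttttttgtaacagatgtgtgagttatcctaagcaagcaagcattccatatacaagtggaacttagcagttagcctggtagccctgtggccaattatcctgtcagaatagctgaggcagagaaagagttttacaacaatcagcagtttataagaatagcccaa
Ninj1: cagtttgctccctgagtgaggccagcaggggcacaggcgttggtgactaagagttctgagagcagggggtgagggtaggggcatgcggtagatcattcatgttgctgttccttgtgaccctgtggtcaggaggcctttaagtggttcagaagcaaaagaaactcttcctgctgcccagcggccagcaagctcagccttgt
Dkk2: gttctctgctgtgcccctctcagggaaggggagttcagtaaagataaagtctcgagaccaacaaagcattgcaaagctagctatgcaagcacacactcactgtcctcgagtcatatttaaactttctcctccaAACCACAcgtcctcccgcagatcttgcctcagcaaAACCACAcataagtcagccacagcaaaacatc
H2-M10.4: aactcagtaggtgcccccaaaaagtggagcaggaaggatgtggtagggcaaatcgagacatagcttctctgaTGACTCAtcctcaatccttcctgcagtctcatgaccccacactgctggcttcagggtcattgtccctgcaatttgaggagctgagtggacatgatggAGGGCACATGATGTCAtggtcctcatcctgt

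The next 3 are the members with the largest mean fall that hold MITF/TFE, E-box and MAF matches. They lie in *Tnfrsf1b* (chr4:145222116-145222315), in an intron of *Itpr2* nearest to the TSS of *Sspn* (chr6:146209066-146209265), and in *Slco2b1* (chr7:99674990-99675189). The capitals in *Tnfrsf1b* mark TCACGTG, which contains the E-box, and an AP-1 site. Those near *Sspn* mark a KLF pattern and the E-box CACGTG. Those in *Slco2b1* mark RUNX, a nuclear receptor half-site that runs into a MAF match, PU.1 on the opposite strand and a second MAF match, TGCTGAC.
Tnfrsf1b: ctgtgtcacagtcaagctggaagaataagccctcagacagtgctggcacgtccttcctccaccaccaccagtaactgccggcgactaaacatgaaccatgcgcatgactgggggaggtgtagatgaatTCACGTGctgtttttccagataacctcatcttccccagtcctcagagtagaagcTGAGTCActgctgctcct
Sspn: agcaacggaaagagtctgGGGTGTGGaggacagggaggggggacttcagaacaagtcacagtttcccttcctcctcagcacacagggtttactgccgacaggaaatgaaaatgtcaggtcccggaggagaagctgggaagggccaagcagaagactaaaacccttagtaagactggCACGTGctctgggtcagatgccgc
Slco2b1: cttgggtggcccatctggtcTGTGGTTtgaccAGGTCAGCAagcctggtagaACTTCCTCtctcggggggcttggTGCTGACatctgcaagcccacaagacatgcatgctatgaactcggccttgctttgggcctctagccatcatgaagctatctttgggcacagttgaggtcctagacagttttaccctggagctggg

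The last 2 are the promoter members with the largest falls, at *Hpgds* (chr6:65144832-65145031, 1 C/EBP match) and *Il21r* (chr7:125603328-125603527, 1 SP/KLF match). These were added after their values were seen.
Hpgds: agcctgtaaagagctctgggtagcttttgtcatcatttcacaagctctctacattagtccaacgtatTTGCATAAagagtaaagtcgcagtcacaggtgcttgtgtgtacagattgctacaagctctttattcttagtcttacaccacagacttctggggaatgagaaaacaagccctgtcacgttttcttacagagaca
Il21r: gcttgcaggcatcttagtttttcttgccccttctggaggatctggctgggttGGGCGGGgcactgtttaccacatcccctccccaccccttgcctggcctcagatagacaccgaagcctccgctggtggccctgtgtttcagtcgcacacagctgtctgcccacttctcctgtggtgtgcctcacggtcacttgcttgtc

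Among all shared regions, 15.1% lost at least 15 points in LPS against Veh, 9.71% did so in T0-LPS against T0, and 5.19% did so in both, which makes them members. Members were 34.4% of the 3989 regions that fell without T0 and 53.4% of the 2568 that fell with T0. These shares depend on the scale, so those without and with T0 are not compared. Over all shared regions the median difference with LPS was -1.94 points without T0 and 0.623 with it. With percentiles taken among the shared regions alone, it was 0.0794 and -0.0908. A mirror set of 926 regions (3.50% of shared regions) gained at least 15 points in both comparisons and is called strengthened below. The other shared regions, or others, are all that are not members, so they include the strengthened regions. The LPS comparisons with and without T0 share no list, and across the 26439 regions their differences had a Pearson correlation of 0.559 (Spearman 0.446), as the plot of rank changes shows.

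**Figure D1:**
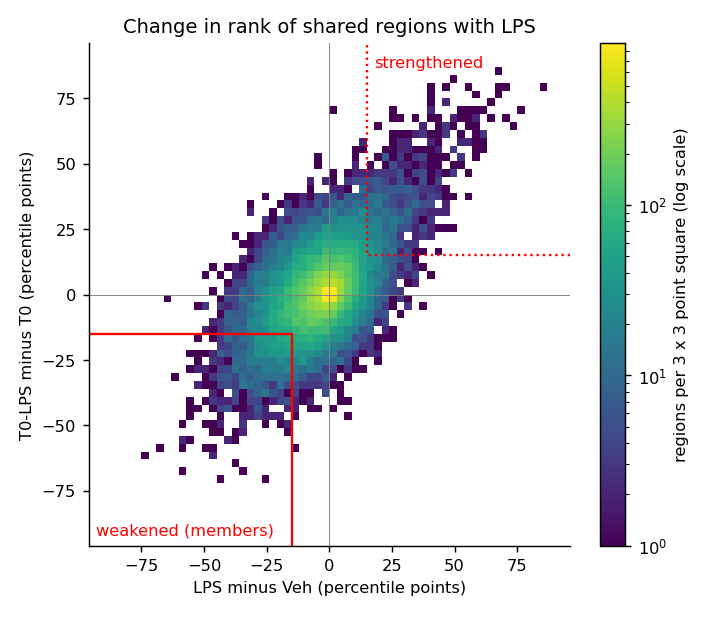
Change in percentile of each of the 26439 shared regions in LPS minus Veh (horizontal) and T0-LPS minus T0 (vertical), as the number of regions per square on a log colour scale. The solid red corner holds the 1371 members and the dotted corner the 926 strengthened regions, and the cloud runs from one corner to the other.

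Members were of middling strength before LPS. Their Veh percentile ran from 19.3 to 99.0 with a median of 59.0, against 62.7 in other shared regions, and the medians in T0 were 52.5 and 55.5. After LPS the median percentile of members was 31.7, and in T0-LPS it was 26.1, against 61.4 and 58.9 in the others. In 1349 of the 1371 members both percentiles with LPS lay under both percentiles without it, which the rule largely fixes, against 6716 (25.4%) of all shared regions. The median difference was -24.7 points in LPS against Veh and -23.1 in T0-LPS against T0. A mean fall of at least 30 points was found in 340 members, of at least 40 in 68 and of at least 50 in 16.

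Members were most frequent among regions of middle rank. They made up 8.16%, 8.67% and 8.21% of regions in the Veh percentile bins 40 to 50, 50 to 60 and 60 to 70, but 1.90% at 20 to 30 and 0.594% above 90. A region of low rank cannot lose 15 points. At the edge of the rule, members near *Bcar3*, *Mgst3* and *Oacyl* fell by 15.01 points each in the comparison with the smaller fall. Regions near *Gdap2*, *Zfp383* and *Foxb2*, which fell by 14.98, 14.97 and 14.97 there, were left out.

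Peak width, which the rule did not use but which follows the same signal, was also smaller. The median peak of members was 386 bp wide in Veh, 294 bp in LPS, 332 bp in T0 and 276 bp in T0-LPS. In LPS 93.9% of members had a narrower peak than in Veh, against 67.7% of other shared regions and 17.5% of strengthened ones. In T0-LPS against T0 the shares were 84.7%, 42.5% and 5.62%.

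The largest mean fall, 67.0 points, was in an intergenic region 24.2 kb downstream of the TSS of *4930486L24Rik* (chr13:60839973-60840497), whose window with no motif match is shown above. Its score was 617 in Veh, 63 in LPS, 574 in T0 and 133 in T0-LPS, which put it at percentiles 73.3, 0.898, 79.2 and 17.6. Both values with LPS were low in their lists and both values without it high. Next came a region in an intron of *Ninj1*, which encodes a membrane protein that ruptures the plasma membrane of dying cells. It scored 460 in Veh, 73 in LPS, 501 in T0 and 94 in T0-LPS, at percentiles 59.6, 1.77, 73.2 and 6.29.

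The region 34.1 kb upstream of *Dkk2*, a Wnt antagonist gene, stood at percentiles 73.9, 7.81, 67.8 and 9.21 in Veh, LPS, T0 and T0-LPS. The one near *H2-M10.4*, a class Ib MHC gene, stood at 65.1, 6.07, 63.6 and 5.29 in the same order, so in both the values with LPS were close to each other. Regions nearest to *Sem1*, *Umps* and *Stk32c* had the same form, with percentiles of 54.7 to 74.6 in Veh and T0 and of 2.76 to 18.9 in LPS and T0-LPS. The *Umps* region lay in an intron of *Itgb5*, an integrin subunit gene, and the *Stk32c* region in an exon of *Lrrc27*.

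A region 177039 bp from *Rnf152* behaved differently in one respect, since its percentile was 86.8 in Veh and 43.0 in LPS but 80.9 in T0 and 11.2 in T0-LPS. The region 117 kb from *Ly86*, which encodes MD-1, the partner of the TLR4 relative RP105, was alike, at 73.9 and 28.5 without T0 and 72.0 and 9.21 with it. In *Slco2b1*, an organic anion transporter gene, the region with 2 MAF matches scored 442 in Veh, 57 in LPS, 308 in T0 and 61 in T0-LPS. Its percentiles were 57.8 and 50.7 without LPS and 0.500 and 0.991 with it, near the bottom of both lists. In the plot of the largest falls the values with LPS lay below those without it in all 12, which the choice of these regions largely fixes.

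**Figure D2:**
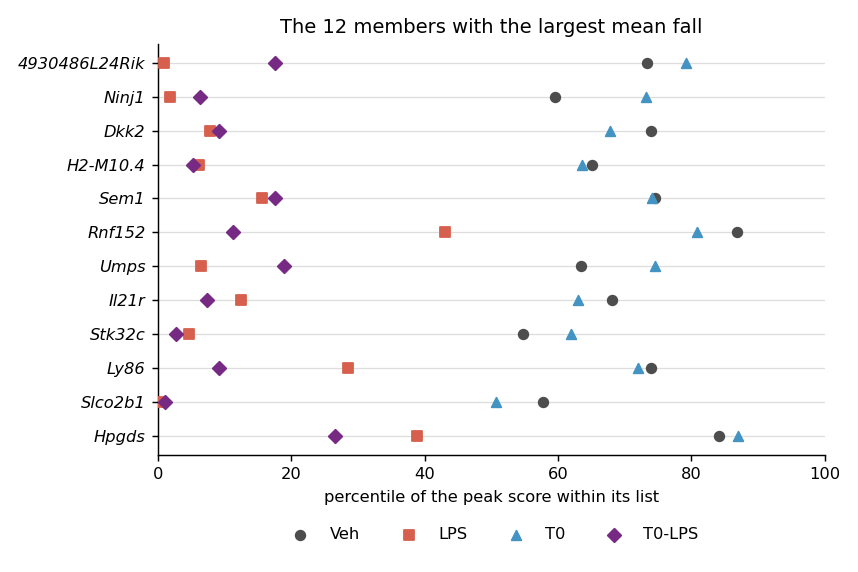
Percentile of the peak score within its list (horizontal) for the 12 members with the largest mean fall, each named by its nearest protein-coding TSS. Circles are Veh, squares LPS, triangles T0 and diamonds T0-LPS, 1 pooled list each, with no error to show. The 2 symbols with LPS lie to the left of the 2 without it in every row, which the choice of these regions largely fixes.

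Members lay away from promoters. The midpoint was within 1 kb of a TSS in 187 members, 13.6% (95% interval 11.9 to 15.6), against 44.7% of other shared regions (44.1 to 45.3) and 23.2% of strengthened regions (20.6 to 26.0). Introns held 49.5% of members against 31.8% of the others, intergenic DNA 33.48% against 21.02%, and exons 3.43% against 2.52%. These are shares of all regions, so they are higher where fewer regions lie near a TSS. The counts in introns, intergenic DNA and exons were 678, 459 and 47 in members and 7964, 5270 and 631 in others. Away from a TSS the places thus stood in similar proportion to each other in both sets. The midpoint fell in an annotated UTR in 3.65% of members and in 15.8% of others. The median distance to a TSS was 9761 bp in members and 2146 bp in others.

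Strength before LPS moves with position, so the shares were also taken within bins of Veh percentile. Weighted to the bins of the members, 41.8% of other shared regions were near a TSS. The share was 15.5% of members and 38.9% of others at Veh percentiles 50 to 60, and 10.7% against 49.6% at 80 to 90. The members were lower in each of the 8 bins that held at least 20 of them, as the plot of position by strength shows.

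**Figure D3:**
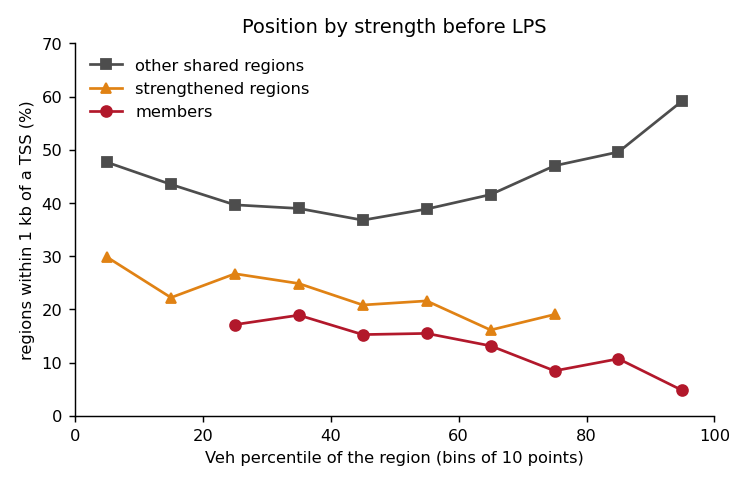
Share of regions within 1 kb of a TSS (vertical, percent) by Veh percentile in bins of 10 points (horizontal), for members (circles), other shared regions (squares) and strengthened regions (triangles); bins with fewer than 20 regions of a set are not drawn. The line of the members runs from 17.1% at 20 to 30 to 4.76% above 90, under that of the others, which runs from 39.7% to 59.2% over the same bins.

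Members near a TSS differed from other regions near a TSS in composition. Any annotated TSS was counted, those of non-coding transcripts included, and the kinds of TSS were not separated. Members within 1 kb of a TSS held on average 7.27 CpG per 200 bp, against 16.5 in other regions near a TSS, and their median GC content was 53.5% against 65.0%. Over 1 kb from a TSS the sets were closer, with 3.06 and 3.67 CpG per window and 50.0% and 49.0% GC. Repeats covered at least 50% of the window in 2.77% of members and 2.14% of others.

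A protein-coding TSS lay within 1 kb of 119 members. The *Il21r* promoter, for the receptor of the cytokine IL-21, scored 552 in Veh, 123 in LPS, 399 in T0 and 97 in T0-LPS, at percentiles 68.1, 12.4, 63.0 and 7.36, with its peak centre 66 bp upstream of the TSS. The *Hpgds* promoter, for hematopoietic prostaglandin D synthase, scored 792, 248, 702 and 169 in the same order, at percentiles 84.2, 38.8, 86.9 and 26.6, with its centre 24 bp upstream. The other promoters named here were picked after their values were seen, mostly at genes of immune cells, so they do not stand for all 119. Promoters of other kinds of genes were members too, such as those of *Rpl24*, *Mrpl48*, *Pold4* and *Olfr111*. In the fixed list of surface receptor genes 1.92% of shared regions were members. At *Mapkapk2*, encoding the p38 target kinase MK2, the peak scored 335 in Veh, 116 in LPS, 297 in T0 and 62 in T0-LPS, at percentiles 45.4, 10.5, 49.2 and 1.04. Percentiles in the same order were 64.3, 37.8, 64.3 and 33.0 at the purinergic receptor gene *P2ry12*. They were 61.0, 31.7, 43.0 and 21.8 at *Fcrls*, an Fc receptor-like gene, and both genes are known as markers of resting microglia. At *Cd200r1*, an inhibitory receptor gene, they were 60.6, 23.3, 35.6 and 18.1, and at *Cd180*, encoding RP105, 49.4, 33.4, 33.8 and 14.5. In *Fcrls*, *Cd200r1* and *Cd180* the T0 value was below the Veh value as well, as it was in 76.9% of all members and 76.6% of other shared regions.

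*Tyrobp*, encoding the adaptor DAP12, stood at percentiles 53.3 in Veh, 22.3 in LPS, 44.0 in T0 and 27.2 in T0-LPS. The chemokine receptor gene *Cxcr3* stood at 46.0, 4.48, 17.5 and 0.727. The regions 615 to 657 bp upstream of *Bcl2a1a*, *Bcl2a1b* and *Bcl2a1d*, anti-apoptotic paralogs, were all members, with mean falls of 34.3, 34.4 and 32.6 points. These genes are near-identical copies, and reads can be split between copies, so the 3 are not independent.

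Since regions near a TSS differ in sequence, motif shares are given for the 1184 members and 13848 other regions over 1 kb from a TSS. A match is a description of the letters in the window, and binding was not measured. The pattern for PU.1 (GAGGAAGT) was found in 13.3% of members (11.5 to 15.4) and 12.4% of others, and that for RUNX (TGTGGTT) in 9.97% and 9.81%, so that both sets were close in matches for these factors. Nuclear receptor half-sites (AGGTCA) were in 14.7% of members and 14.8% of others, and DR4 matches in 1.77% (1.16 to 2.70) and 2.25%.

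The NF-kB, AP-1, C/EBP and IRF patterns were less frequent in members, while STAT (TTCCNGGAA) was in 0.676% of members (0.343 to 1.33) and 0.773% of others. NF-kB matches were in 10 members, 0.845% (0.459 to 1.55), against 3.78% of other regions and 21.4% of strengthened regions (18.5 to 24.6). AP-1 (TGAGTCA) was in 16.5% of members (14.5 to 18.7), 21.1% of others and 20.1% of strengthened regions. C/EBP (TTGCNNAA) was in 10.6%, 14.5% and 18.5%, and IRF matches in 2.36%, 4.36% and 8.73%. At least 1 of these 4 patterns was in 27.5% of members, 38.6% of others and 56.2% of strengthened regions. Of all shared regions over 1 kb from a TSS, 7.88% were members, against 1.88% of those with an NF-kB match.

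Patterns with a CACGTG core were more frequent. The E-box CACGTG, bound by basic helix-loop-helix factors such as MYC, USF and MITF/TFE, was in 6.50% of members (5.23 to 8.05), 4.07% of others and 1.55% of strengthened regions. TCACGTG, preferred by MITF, TFEB, TFE3 and TFEC, was in 42 members, 3.55% (2.63 to 4.76), against 1.96% and 1.13%. Members were 13.4% of the regions with TCACGTG and 12.01% of those with CACGTG. The MAF half-site TGCTGAC was in 8.45% of members (6.99 to 10.2) and 6.90% of others, and MEF2 matches in 1.86% (1.23 to 2.80) and 1.19%. The shares in others changed little when weighted to the Veh percentile bins of the members, to 1.87% for TCACGTG, 3.68% for NF-kB and 20.9% for AP-1.

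**Figure D4:**
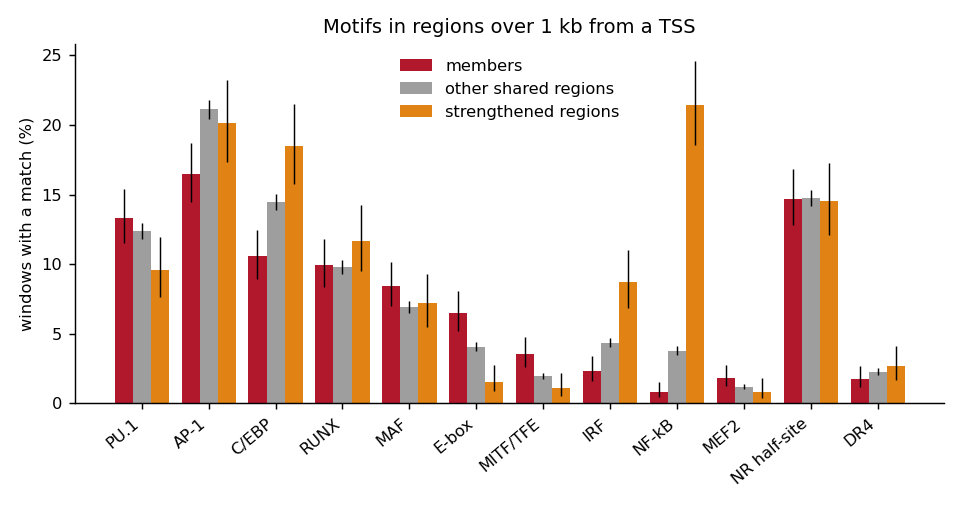
Share of 200 bp windows with a match (vertical, percent) for 12 of the 22 motifs (horizontal) in regions over 1 kb from a TSS; bars are members (red), other shared regions (grey) and strengthened regions (orange), and error bars are 95% Wilson intervals. NF-kB stands at 0.845% in members and 21.4% in strengthened regions, while E-box and MITF/TFE are highest in members.

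Near a TSS the order of AP-1 was the opposite, with a match in 13.9% of members and 3.89% of other regions within 1 kb of a TSS. The order of C/EBP turned as well, to 8.02% (4.92 to 12.8) against 5.27%, and over all positions it was in 10.2% and 10.4%. TCACGTG was in 3.74% (1.82 to 7.52) and 4.22% near a TSS, so its excess was seen only farther away. NF-kB and IRF kept their order near a TSS, at 0% against 3.67% and 1.60% against 2.04%. Over all positions AP-1 was 1.20 times as frequent in members as in others, and over 1 kb from a TSS 0.780 times. Regions near a TSS, where AP-1 was rare, were 44.7% of the others and 13.6% of members. TCACGTG in the central 100 bp of all regions was 0.870 times as frequent in members, against 1.20 times in 200 bp.

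Each region was assigned to the protein-coding gene with the nearest TSS, which need not be the gene it acts on. Of 207 shared regions at 20 lineage transcription factor genes, 13 were members (6.28%, 3.71 to 10.4), near the 5.19% over all shared regions, and 11 were strengthened (5.31%). *Maf*, a factor of resident macrophages, had 3 members of its 22 shared regions, and *Mef2c*, a MADS-box factor, had 3 of 20. The *Mef2c* members outside the gene lay 439 kb and 557 kb from its TSS. The region 92.8 kb downstream of the *Maf* TSS (chr8:115614140-115614537) stood at percentiles 55.9 in Veh, 10.7 in LPS, 51.1 in T0 and 2.98 in T0-LPS, while the *Maf* promoter went from percentile 60.9 in Veh to 72.1 in LPS. In an intron of *Mef2c*, 74.3 kb from the nearest TSS, percentiles were 63.3, 30.1, 66.2 and 35.8 in Veh, LPS, T0 and T0-LPS. *Bach2*, a repressor, had 2 members, and *Irf8*, *Klf4*, *Nfe2l2* and *Runx1* had 1 each, that of *Klf4* 273 kb from the TSS. The *Nfe2l2* region, in an intron of the gene for the oxidative stress factor NRF2, went from 68.6 to 30.6 and from 62.4 to 26.2.

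At nuclear receptor and corepressor genes 7 of 74 shared regions were members (9.46%, 4.66 to 18.3) and 0 were strengthened. Over all shared regions 5.19% were members and 3.50% strengthened, which is the base for each gene list. *Tbl1xr1*, which encodes a subunit of nuclear receptor corepressor complexes, had 1, which lay 142 kb upstream of the TSS. It stood at percentiles 66.1 in Veh, 16.3 in LPS, 59.7 in T0 and 25.1 in T0-LPS. The receptors *Ppard*, *Pparg* and *Nr4a2* had 1 each, the last 818 kb from the TSS. At LXR target genes 3 of 49 regions were members (6.12%, 2.10 to 16.5) and 2 were strengthened (4.08%). The members lay 27.4 kb upstream of *Abca1*, the cholesterol exporter, 13.5 kb from the TSS of the desaturase gene *Scd1* and 4.9 kb upstream of the phospholipid transfer gene *Pltp*. The *Abca1* region stood at percentiles 51.3 in Veh, 17.6 in LPS, 45.9 in T0 and 13.4 in T0-LPS.

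Lysosomal genes had 6 members among 79 shared regions (7.59%, 3.53 to 15.6) and 2 strengthened regions (2.53%). *Atp6v0d2*, a subunit of the proton pump, had 2 members, and *Psap*, *Lgmn*, *Ctsd* and *Tfeb*, the MITF/TFE factor that raises lysosomal genes, had 1 each. The *Tfeb* region, in its intron, stood at percentiles 44.3 in Veh, 12.1 in LPS, 36.4 in T0 and 9.95 in T0-LPS. At growth and cell cycle genes 5 of 69 were members (7.25%, 3.13 to 15.9) and 2 were strengthened (2.90%). The members were at the *Myc* promoter, in an intron of *Ccnd3*, and 103 kb, 145 kb and 198 kb from the TSSs of *Ccnd2*, *Cdk6* and *Mki67*. The *Myc* promoter region fell by 20.51 points without T0, from percentile 47.0, and fell by 22.52 points with it, from 52.5.

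Regulators of G protein signalling had 6 members of 81 (7.41%, 3.44 to 15.2) and 3 strengthened regions (3.70%). The members were nearest to *Rgs1*, *Rgs2*, *Rgs10*, *Rgs18*, *Rasa3* and *Rasgrp3*, that of *Rgs18* 203 kb from the TSS. In an intron of *Rgs10*, which speeds the switching off of G proteins, the region went from percentile 89.1 in Veh to 58.7 in LPS and from 82.0 in T0 to 53.8 in T0-LPS. Surface receptor genes had 2 members of 104 (1.92%, 0.529 to 6.74), at *P2ry12* and *Ifngr1*, and 9 strengthened regions (8.65%, against 3.50% of all shared regions). Integrin and migration receptor genes had 2 members of 83 (2.41%, 0.663 to 8.37), at *Itga4* and *Itga6*, and 2 strengthened regions. Housekeeping genes had 0 members of 37 (0 to 9.41 by Wilson), and the limit of 3 counts that a count of 0 allows is 8.11%. They had 0 strengthened regions as well. The Wilson interval of each of the 10 lists held the 5.19% of all shared regions.

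At genes that LPS is known to induce, 6 of 81 shared regions were members (7.41%, 3.44 to 15.2) and 8 were strengthened (9.88%). Over all shared regions the shares were 5.19% and 3.50%. An intron region of *Acod1*, the itaconate enzyme gene (chr14:103051395-103051730), stood at percentiles 71.7 in Veh, 30.6 in LPS, 64.4 in T0 and 9.21 in T0-LPS. A region 3.8 kb from the TSS of *Nfkbia*, which encodes the NF-kB inhibitor IkBa, stood at 62.3, 20.3, 49.5 and 5.60. The other members lay 14.1 kb upstream of *Cxcl1*, 30.6 kb upstream of *Ccl2*, and 28.6 kb upstream and 15.4 kb downstream of the TSS of *Tnfaip3*, encoding the inhibitor A20. The upstream *Tnfaip3* region went from percentile 68.5 to 35.1 without T0 and from 58.4 to 24.0 with it.

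Some genes had both weakened and strengthened regions. Of the 1175 genes with a member, 157 (13.4%) also had a strengthened region, against 6.99% of all 11895 genes with a shared region. These 157 were 18.9% of the 831 genes with a strengthened region, while 9.88% of all 11895 genes had a member. Genes with more regions have more chances to hold both. By distance, a strengthened region lay within 10 kb of 3.87% of members, and a member within 10 kb of 5.83% of strengthened regions. The others include the strengthened regions themselves, so their share near a strengthened region is not compared with that of members. *Tnfaip3* had 2 of each among 12 shared regions, and the strengthened region 46.9 kb downstream went from percentile 56.5 to 90.0 and from 53.8 to 90.1. At *Il21r* the promoter and regions 10.2 kb and 14.7 kb into the gene were members, while one 19.9 kb in went from 1.01 to 44.5 and from 7.91 to 34.0. At *Maf* 1 of 22 was strengthened, 309 kb downstream, from 52.9 to 87.3 and from 32.9 to 85.3, as the plot of these loci shows.

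**Figure D5:**
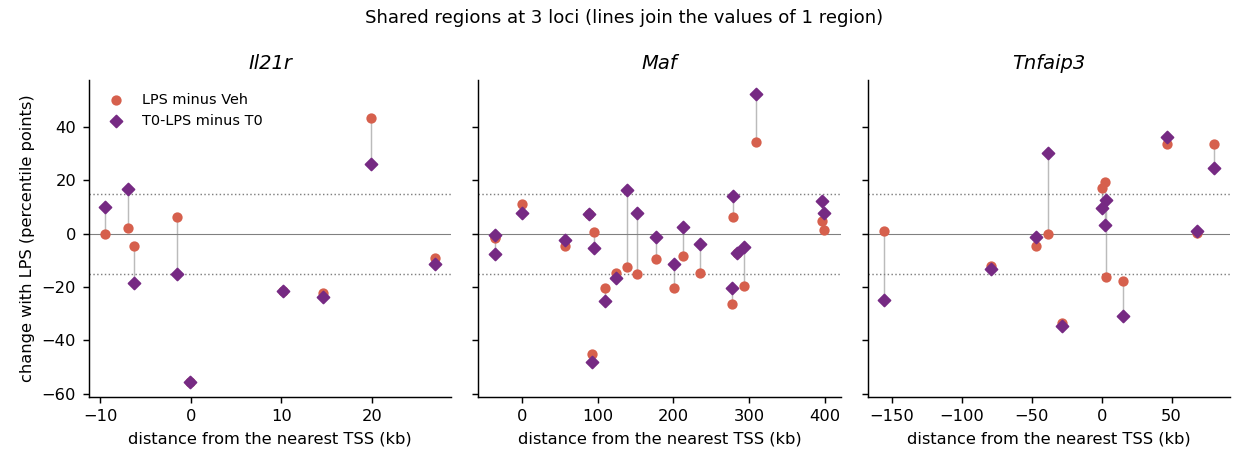
Change in percentile with LPS (vertical, points) of every shared region assigned to *Il21r*, *Maf* and *Tnfaip3*, by distance from the nearest protein-coding TSS (horizontal, kb, positive downstream); circles are LPS minus Veh, diamonds T0-LPS minus T0, grey lines join both values of a region, and dotted lines mark 15 points. Each locus has members below -15 and at least 1 region above 15 in both comparisons.

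Another member lay within 50 kb of 287 members, 20.9% (18.9 to 23.2), while a member lay within 50 kb of 14.5% of other shared regions and 16.8% of strengthened ones. The share of others was 15.1% when weighted to the Veh bins of the members. Another shared region of any kind was as near in 88.3% of members and 88.6% of others. A strengthened region lay within 50 kb of 11.2% of members. An LPS peak absent from the Veh list was that near in 19.2% of members, 22.9% of others and 36.1% of strengthened regions, and a Veh peak absent from the LPS list in 46.8%, 41.3% and 41.9%.

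Most genes with a member had only 1 (1014 of 1175). *Psat1* and *Gsdmc* had 4 each, of 7 and 8 shared regions, but these lay 20.3 to 122 kb from the *Psat1* TSS and 192 to 308 kb from that of *Gsdmc*, so these genes serve as names of the loci. *Qk*, which encodes the RNA-binding protein quaking, had 4 of 12, of which the one 73.4 kb upstream stood at percentiles 76.1 in Veh, 34.4 in LPS, 71.3 in T0 and 26.4 in T0-LPS. The *Qk* promoter region itself, 16 bp from the TSS, was already low at percentile 23.3 in Veh and was 8.91 in LPS. *Hpgds*, *Dnajc5b*, *Rnf144b* and *Tet3* had 3 of 5 each and *Plxna4* 3 of 6. At *Tet3*, an enzyme that oxidises methylated cytosine, the 3 included the promoter, which fell by 34.81 points without T0, from percentile 57.9, and fell by 27.38 points with it, from 48.4.

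The T0 comparisons use the same lists as the rule, so they are a description. In T0 against Veh the median difference was -6.21 points in members and -5.22 in others, and 13.8% of members fell by at least 15 points, against 18.9% of all shared regions. Weighted to the Veh percentile bins of the members, the others had a median of -7.65 and 24.2% fell by at least 15 points, so the order of the medians turned. In T0-LPS against LPS the median was -4.75 in members and -1.42 in others, and 15.6% of members fell by at least 15 points, against 9.12% of all, while the weighted others had -2.26 and 10.3%. These values depend on the scale, since the T0 and T0-LPS lists are shorter than those without T0. With percentiles taken among the shared regions alone, the medians of members were -0.321 and -0.590 and those of others 0.174 and 0.0983, and 5.54% and 6.65% of members fell by at least 15 points against 5.90% and 5.97% of others.

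The extremes of T0 minus Veh among the members are given as values, since the spread of single regions cannot be judged from pooled lists. Regions near *Jchain*, *Diras2* and *Stard8* had the lowest T0 minus Veh, at -35.6, -32.5 and -31.3 points. The *Jchain* region scored 474 in Veh, 174 in LPS, 172 in T0 and 96 in T0-LPS, and stood at percentile 24.9 in LPS and 25.4 in T0. Regions at *Kcnn4*, a calcium-activated potassium channel gene, *Adgrg6* and *Galnt6* had the highest, at 24.0, 21.55 and 19.0 points. The *Kcnn4* promoter scored 212 in Veh, 69 in LPS, 312 in T0 and 77 in T0-LPS, at percentiles 27.2, 1.43, 51.2 and 2.98.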

How the data were processed

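ATAC-seq had been run by the authors on 16 libraries of BMDMs, 4 per group. Their processing notes and methods name cutadapt, Bowtie2 to mm10, SAMtools for duplicate removal, and MACS2 on the pooled libraries of a group; peaks outside macrophage enhancers were removed. The deposited unit was a peak score from the authors' peak caller, whose scale no header states. Deeper pools give higher scores, so lists were compared by the rank of the score within a list, and raw scores are printed only beside percentiles; 1 alternative set a raw minimum of 100 in every list. The depth per library is unknown.

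Overlapping peaks (at least 1 bp) of the 4 lists were merged with Python 3.11.15, pandas 2.3.3 and numpy 2.4.6, and percentiles were the share of peaks of a list with a score at or below the value. Genes came from GENCODE vM21 basic and sequence from GRCm38, the assembly of mm10, and 0 peaks on the main chromosomes ended past its length. Motifs were scanned on both strands in 200 bp at the centre of the Veh peak, without mismatch except DR4 (2) and DR1 (1), and patterns can overlap. Intervals were Wilson 95% intervals (scipy 1.17.1). The code was tested on simulated lists.

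The members and the lists of genes and motifs were chosen with earlier results of these data known. Regions were named by a rule: the 12 largest mean falls, the 8 genes with most members, members at the genes of 10 lists, 3 regions on either side of the threshold, the highest Veh score, and the 3 highest and 3 lowest T0 differences. Alternatives changed the fall, the percentile, the overlap, the score minimum and the windows. Some items that the rule names are not reported here.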

Additional observations from a re-analysis of the deposited data

How the results depend on the processing

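No paired analysis was possible because the 4 libraries of a group were pooled into 1 list, and for the same reason no replicate could be left out. Of 103 alternative values, 82 stayed within the counting interval of the value (within 1.5 times for the number of members). The gene lists hold few members and have wide intervals, so staying within them shows little. The lysosome list had 1.46 times the share of all regions by the rule, 0.912 at a fall of 10 points and 2.91 at 20. Nuclear receptors and corepressors had 1.82, and 0.957 when every gene with a TSS within 100 kb was counted. A fall of at least 10 points gave 2568 members and one of at least 20 points 689. With percentiles among shared regions alone there were 1353 members, 1132 of which overlapped a member of the rule, and with peaks scored at least 100 there were 1422, of which 1147 did. The share of members near a TSS relative to other regions was 0.305 by the rule, 0.349 and 0.261 at falls of 10 and 20 points, and 0.229 and 0.569 with TSS windows of 500 bp and 5 kb. The median T0 minus Veh in members was -0.321 among shared regions alone and -6.85 with scores of at least 100, and T0-LPS minus LPS was -0.590 and -5.83. Over 1 kb from a TSS the motif shares relative to other regions were 1.08 for PU.1, 0.730 for C/EBP, 1.81 for MITF/TFE, 1.60 for E-box and 1.22 for MAF, and AP-1 reversed from 1.20 to 0.780 when regions near a TSS, 13.6% of members and 44.7% of others, were left out. PU.1 was 1.29 at a fall of 20 points, and MITF/TFE 0.870 in windows of 100 bp; the cause was not tested. Another member nearby was 1.44 times as frequent by the rule, 1.28 at a fall of 10 points and 1.73 at 20. Growth and cell cycle genes had 0.532 times the share of all regions when every gene with a TSS within 100 kb was counted.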

Other observations

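Words of 6 bases were counted on both strands in the same 200 bp windows over 1 kb from a TSS, a choice made after the data were seen. Among the words present in at least 4% of other regions, the E-box CACGTG had the highest ratio of members to others. CACGAG, which differs from it by 1 base, was next, in 7.01% of members and 4.47% of others. GCAGGA was in 29.4% of members and 21.2% of others, CACATG in 23.3% and 17.0%, and GGTCAC in 15.7% and 11.5%. The lowest ratio was that of ACGTCA, part of the cAMP response element, in 1.86% of members, 4.35% of others and 3.80% of strengthened regions. The full element TGACGTCA was in 2 members, 0.169%, against 0.607% of others.

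Members lay on every autosome and on X. Their share of shared regions ran from 3.50% on chromosome 11 to 7.37% on chromosome 10, and this spread was not tested.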
